A study of Mus musculus with 6 samples.

Results

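The cytosolic ribosomal protein genes are described here in stem and progenitor cells (HSPCs) from the marrow of mice with and without acute myeloid leukemia (AML). They were taken by symbol: of 32285 genes in the count tables, 97 had a symbol of Rpl or Rps followed by a digit. From these, 10 Rps6k kinase genes, 5 pseudogene symbols ending in -ps and a digit, and 3 genes with under 100 unique molecular identifiers (UMIs, each a counted RNA molecule) over all kept cells were left out: Rpl3l had 96, Rpl39l had 49 and Rpl10l had 0. The remaining 79 genes comprised 46 Rpl and 33 Rps genes. Of these, 73 encode the standard subunits, and the other 6 are Rpl36al, Rpl22l1, Rps27l, Rpl7l1, Rps27rt and Rps19bp1, the last of which encodes a binding partner of a ribosomal protein rather than a subunit. The symbol rule misses 6 genes that also encode ribosomal proteins, among them Rplp0, Rplp1, Rplp2, Rpsa and Fau, and the 6 held 2.58% of the UMIs.

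Female C57BL/6J mice carrying CD45.1, 8 to 12 weeks old and not conditioned, received either 1000000 C1498 cells, a murine AML line carrying CD45.2, or PBS, and were sacrificed on day 21. CD45.1+ Lin- cKit+ Sca1+ cells were sorted from the marrow of femur and tibia, so the leukemic cells themselves were gated out, and profiled by droplet single-cell RNA-seq with Chromium V3 chemistry. There were 3 PBS and 3 AML libraries. The labels do not tie a library to one mouse, so p-values measure the spread between libraries, which may be partly technical. The authors' cell table held 16822 cells from the 3 PBS libraries and from AML replicates 1 and 3, and none from AML replicate 2, so AML against PBS is 2 against 3 libraries. AML replicate 1 was the thinnest, with 693 cells and a median of 2393 UMIs per cell against medians of 4015 to 9586 in the others, and between 0 and 12 kept cell barcodes were shared by any pair of libraries. The sort markers Kit, Ly6a, Cd34 and Ptprc were detected in all 5 libraries, with a summed level of 464 to 663 CPM (UMIs scaled to 1000000 per library) in PBS and 574 to 591 in AML.

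A ribosome joins a small subunit, which reads the mRNA, to a large subunit, which makes the peptide bond, and Rps and Rpl genes encode the proteins of each. Their mRNAs are among the most abundant of any growing cell, and many begin at the cap with a terminal oligopyrimidine (TOP) tract, an unbroken run of C and T through which the mTOR pathway controls their translation. In blood formation, loss of one copy of several of these genes causes Diamond-Blackfan anemia, and free ribosomal proteins such as Rpl5 and Rpl11 can bind MDM2 and stabilize p53. Quiescent hematopoietic stem cells (HSC) make protein slowly compared with the multipotent progenitors (MPP) they give rise to.

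The start sites of the genes on which the results turn are shown first: the paralogs beside their partners, and then Rpl31 and Rps9, which stood at opposite ends of the AML comparison. Rpl7, the partner of Rpl7l1, had no RefSeq promoter and is not shown. Each line gives 30 bases on the transcribed strand, 10 before the RefSeq start site and 20 from it onward (RefSeq, GRCm38.p6), and capitals mark the longest run of C and T lying within 10 bases of the start, counted only inside that span. Where runs tied in length, as in Rps27rt, Rpl36a, Rpl36al and Rpl7l1, the first is marked. These windows span the promoter edge and the first bases of exon 1 as RefSeq places it.
Rps27, chr3:90213629-90213658, minus strand: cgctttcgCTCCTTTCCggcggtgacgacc
Rps27rt, chr9:114982720-114982749, minus strand: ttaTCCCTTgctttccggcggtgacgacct
Rps27l, chr9:66946076-66946105, plus strand: CCTCCCCgccgcctctatcccggaagttgc
Rpl22, chr4:152325716-152325745, plus strand: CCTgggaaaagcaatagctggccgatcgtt
Rpl22l1, chr3:28805498-28805527, plus strand: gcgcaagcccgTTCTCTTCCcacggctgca
Rpl36a, chrX:134585644-134585673, plus strand: CCCaggcaccgcctataaacttccgttgcg
Rpl36al, chr12:69184048-69184077, minus strand: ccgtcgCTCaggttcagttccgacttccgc
Rpl7l1, chr17:46782637-46782666, minus strand: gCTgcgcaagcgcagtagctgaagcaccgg
Rpl31, chr1:39367841-39367870, plus strand: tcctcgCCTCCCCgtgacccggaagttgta
Rps9, chr7:3704031-3704060, plus strand: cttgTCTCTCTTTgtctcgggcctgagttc

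Of the 79 genes, 60 had a RefSeq promoter, and 23 of these (38.3%) held an unbroken run of at least 7 letters C or T within 10 bases of the start, against 12.1% of 26965 other genes. The start was chosen differently in the sets: nearest the GENCODE gene start for the 79 genes, and first listed for other genes. Even so the start used lay 3553 bases from the GENCODE gene start in Rps24. Runs of at least 7 letters A or G, the same letters on the opposite strand, were found in 3.33% and 13.1%. Rps27 had a run of 9 bases and Rps27rt 2 runs of 6, and around their starts they shared a stretch of 38 bases. Over the transcripts, 91.1% of the 325 words of 50 bases in Rps27rt also occurred in Rps27, so reads from these genes cannot be fully told apart and both counts are uncertain, those of Rps27rt most of all. No 50-base word was shared between Rps27l and Rps27, Rpl22l1 and Rpl22, Rpl36al and Rpl36a, or Rpl7l1 and Rpl7.

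The 79 genes together held 28.6% of the UMIs of the kept cells, and 39 of the 50 most abundant genes belonged to them. Among the 3 highest totals were those of Rps24 (1173209 UMIs) and Rps20 (873847), both small-subunit genes. The lowest were those of Rps27rt (4781), Rps19bp1 (6475) and Rpl7l1 (13596), none of them a standard subunit. UMIs count molecules and were not divided by gene length.

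By library, the share of UMIs was 25.6%, 31.7% and 31.1% in PBS replicates 1, 2 and 3, and 27.6% and 29.0% in AML replicates 1 and 3. Both AML libraries lay inside the range of the PBS libraries. In AML replicate 2, left out of the cell table, the genes held 25.7% of the UMIs over all barcodes and 27.3% in the 106 barcodes with at least 1000 genes and at most 10% mitochondrial UMIs.

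The classes assigned by the authors showed similar shares. HSC held 25.6%, 32.7% and 31.0% in PBS and 25.5% and 27.6% in AML, the AML value of replicate 1 resting on 23 cells. MPP4, the lymphoid-primed class, held 26.2%, 32.8% and 32.2% in PBS and 26.7% and 29.4% in AML, above HSC in 5 of 5 libraries by 1.02 ± 0.64 percentage points (SD, n = 5). MPP2, the megakaryocyte and erythroid-leaning class, exceeded HSC in 4 of 5 libraries by 0.80 ± 1.42 points (SD, n = 5), less than the spread between libraries. MPP3, the myeloid-leaning class, differed from HSC by −2.73 ± 5.19 points (SD, n = 5), and by 1.02 ± 1.83 points without cluster 6, whose cells are described next.

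**Figure D1:**
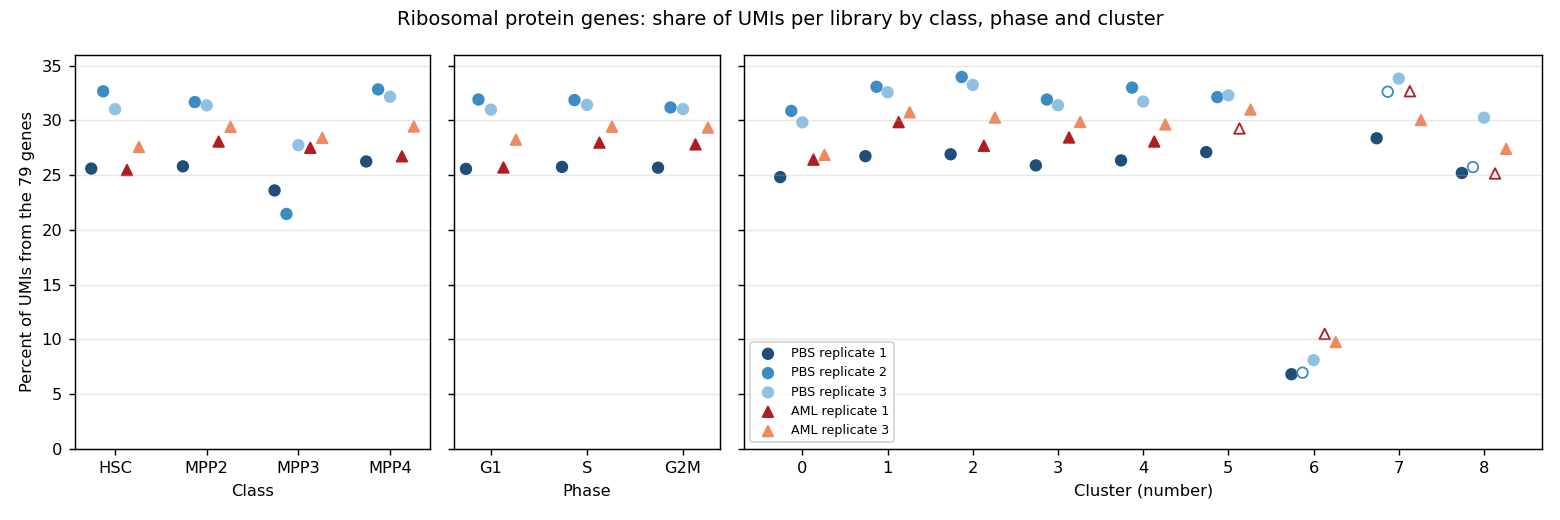
Percent of UMIs from the 79 ribosomal protein genes (y axis) in each library, by class, phase and cluster as the authors assigned them; circles are PBS and triangles AML libraries, and open symbols rest on fewer than 20 cells. The libraries keep roughly the same order across divisions, and in cluster 6 all 5 lie between 6.8% and 10.5%.

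Cluster 6 stood apart. Its 177 cells, 172 of them in MPP3 and 162 called G1, held only 6.8%, 7.0% and 8.1% ribosomal protein UMIs in PBS and 10.5% and 9.8% in AML, where the other clusters held about 25% to 34%. Immunoglobulin genes and Jchain, markers of plasma cells, took 51.1% to 71.3% of its UMIs against 0.0156% to 0.0653% in the other clusters. Counted over the UMIs that were not immunoglobulin or Jchain, the ribosomal protein share was 18.5% to 24.2% in cluster 6 and 26.0% to 32.3% elsewhere, lower in each of the 5 libraries. With cluster 6 left out, the MPP3 share went from 23.6%, 21.4% and 27.7% to 26.0%, 31.1% and 31.7% in PBS, and from 27.5% and 28.4% to 28.6% and 30.0% in AML.

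The comparisons of classes with HSC were fitted on sums of counts per library and class, with the library as a block, by edgeR's quasi-likelihood test over all genes. The classes were themselves assigned from the expression of these cells, so calls between them are descriptive. In MPP2, 73 of the 79 genes were called higher than in HSC and 0 lower, where 59.0% of all genes were called in either direction and 29.9% higher. The median log2 difference was 0.34 against −0.02 over all genes. In MPP3, 28 were called higher and 0 lower (all genes: 42.3% in either direction, 21.9% higher, 20.4% lower), with a median of 0.26. In MPP4, 42 were called, all higher (all genes: 36.9% and 18.4%), with a median of 0.14.

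Scaling mattered for these counts. The normalization used, the trimmed mean of M values (TMM), sets the middle of all genes near 0, whereas scaling on library size alone moved the median of all genes to −0.28 in MPP2, −0.37 in MPP3 and −0.07 in MPP4. On that scale 28 ribosomal protein genes were called higher and 7 lower in MPP2 (all genes: 17.3% higher and 48.4% lower), 2 higher and 6 lower in MPP3 (8.00% and 44.7%), and 38 higher and 3 lower in MPP4 (14.5% and 22.8%). Relative to the median of all genes, the ribosomal protein median stood 0.36 above in MPP2 by TMM and 0.33 by library size, 0.28 and 0.21 above in MPP3, and 0.16 and 0.13 above in MPP4. Phase moved with class: 56.5% to 87.9% of HSC but only 6.1% to 12.9% of MPP2 were in G1, by library. Fits in G1 cells alone used fewer libraries, 3 for MPP2 and 4 for MPP3 and MPP4, as sums of under 20 cells were left out. In them 59 of the genes were called higher and 0 lower in MPP2 (8.31% of all genes called higher), 3 and 0 in MPP3 (10.5%), and 50 and 1 in MPP4 (15.8%). In MPP3 the share of the 79 genes was thus below that of all genes. This G1 fit kept cluster 6, described above, and no G1 fit without it was run. The share of UMIs in G1 cells of MPP3 lay between 14.3% and 24.9% by library with cluster 6, and between 26.2% and 32.1% without it. The medians in G1 cells were 0.19, 0.09 and 0.14. In the PBS libraries alone the MPP3 median was 0.13, with 20 genes called, all higher (17.1% of all genes were). The part of phase in the class differences was not tested further.

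**Figure D2:**
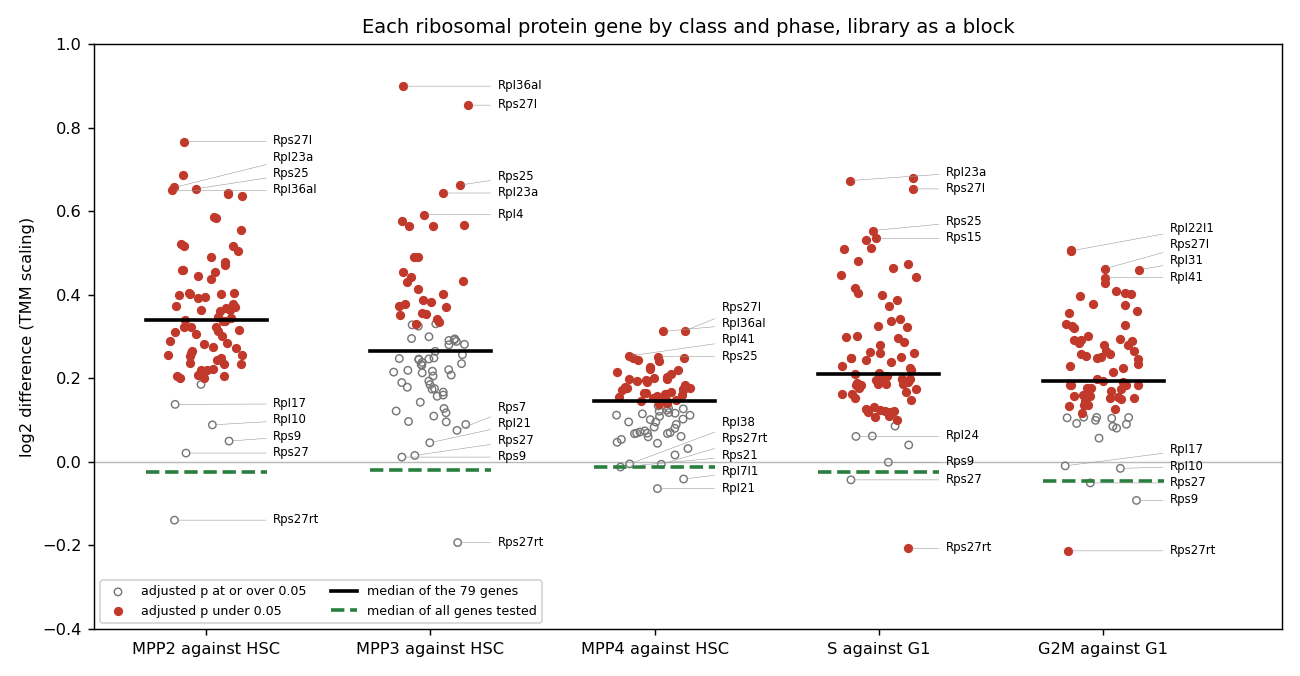
Log2 difference (y axis, TMM-scaled edgeR fit) of each ribosomal protein gene in the class and phase comparisons; each point is 1 of 79 genes, filled where the adjusted p was under 0.05, with lines at the median of the 79 genes and of all genes tested. The median of the 79 genes lies above that of all genes in each comparison, with Rps27l among the highest and Rps27rt the lowest except in MPP4; on library-size scaling both medians are lower.

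Rps27l, a paralog of Rps27 that p53 can induce, had the largest difference of the 79 genes in MPP2 and MPP4 and stood below Rpl36al in MPP3. Its level in HSC was 259, 290 and 431 CPM in PBS and 413 and 279 CPM in AML, and in MPP2 it was 397, 482 and 677 in PBS and 908 and 539 in AML (TMM-scaled). It was higher in MPP2 in every library, by a log2 difference of 0.77 (SE 0.08, edgeR adjusted p = 7.41e-14). It was higher too in MPP3 by 0.85 (SE 0.12, adjusted p = 3.45e-07) and in MPP4 by 0.31 (SE 0.05, adjusted p = 1.11e-06).

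Rpl36al, the paralog of Rpl36a, was at 820, 953 and 1192 CPM in HSC of PBS and 746 and 847 in AML (TMM-scaled). In MPP3 it was at 1180, 2103 and 2052 in PBS and 1593 and 1724 in AML. By plain CPM PBS replicate 2 had 982 in HSC and 1414 in MPP3. MPP3 exceeded HSC in 5 of 5 libraries, with a log2 difference of 0.90 (SE 0.13, edgeR adjusted p = 3.17e-07), and it was called at 0.78 without cluster 6. The difference was 0.65 (SE 0.08) in MPP2 and 0.31 (SE 0.05) in MPP4, both called.

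Among the standard subunits, Rpl23a, at the mouth of the exit tunnel of the large subunit, rose by a log2 difference of 0.66 (SE 0.08) in MPP2 and 0.64 (SE 0.12) in MPP3. Rps25, which several viral internal ribosome entry sites need, rose by 0.65 in MPP2, 0.66 in MPP3 and 0.25 in MPP4 and was higher in 5 of 5 libraries each time. Rpl4, a large-subunit protein lining the exit tunnel, rose by 0.59 (SE 0.12) in MPP3, and Rpl41 rose by 0.25 in MPP4. These calls were by edgeR with Benjamini-Hochberg adjustment over all genes.

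At the other end, Rps9, Rps27 and Rps27rt did not pass the test in any class. Rps27 had log2 differences of 0.02 in MPP2, MPP3 and MPP4 (SE 0.08, 0.12 and 0.05), while Rps9 had 0.05 (SE 0.08) in MPP2 and 0.01 (SE 0.13) in MPP3. Rps27rt had −0.14 in MPP2, −0.19 in MPP3 and −0.01 in MPP4. By TMM-scaled CPM it was lower than in HSC in 4, 4 and 3 of 5 libraries, and by plain CPM in every library in each class. Also uncalled were Rpl17 at 0.14 and Rpl10 at 0.09 in MPP2, Rpl21 at 0.05 and Rps7 at 0.08 in MPP3, and Rpl38 at −0.01, Rps21 at −0.01, Rpl7l1 at −0.04 and Rpl21 at −0.06 in MPP4.

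Cell cycle phase, as called by the authors, gave a similar picture. In S phase 72 of the 79 genes were called higher than in G1 and 1 lower, where 60.0% of all genes were called in either direction and 30.7% higher, with a median log2 difference of 0.21 against −0.02 over all genes. Without AML replicate 3 these medians were 0.11 and −0.09. In G2M 63 were called higher and 1 lower (all genes: 56.0% and 27.7%), with a median of 0.19 against −0.05. With library-size scaling 31 were called higher and 7 lower in S (all genes: 21.7% and 44.1%), and 29 higher and 10 lower in G2M (18.0% and 45.0%). The median stood 0.23 and 0.24 above that of all genes in S by TMM and library size, and 0.24 and 0.25 above in G2M.

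The share of UMIs moved differently from these differences. Pooled over classes, S exceeded G1 by 0.81 ± 0.94 points and G2M exceeded G1 by 0.53 ± 1.10 points (SD, n = 5), each in 4 of 5 libraries. Without cluster 6 the differences were −0.44 ± 0.64 and −0.69 ± 0.85 points, and S and G2M were each above G1 in 1 of 5 libraries. Within MPP2 the S share was below G1 by 1.55 points on average (SD 0.78, 0 of 4 libraries above), and within MPP4 G2M was below G1 by 1.38 points (SD 0.85, 0 of 4 libraries above). Within MPP3 S and G2M exceeded G1 by 6.03 and 5.73 points (SD 1.48 and 1.84, 4 of 4 libraries above), and without cluster 6 the differences were −0.09 and −0.06 points (SD 0.70 and 0.73, 1 of 4 above). Fitted within MPP4 alone, 43 genes were called higher and 4 lower in S (44.4% of all genes called in either direction), with a median log2 difference of 0.07. In G2M, fitted in the 4 libraries with at least 20 such cells, 4 were called higher and 4 lower (22.3%), a smaller share than among all genes, with a median of −0.05.

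Rpl23a rose in both phases. Its TMM-scaled levels in G1 were 450, 525 and 555 CPM in PBS and 690 and 480 in AML. In S they were 697, 785 and 923 in PBS and 1042 and 823 in AML. On this scale every S value lay above every G1 value, the lowest in S being 697 and the highest in G1 690. The log2 difference was 0.67 (SE 0.04, edgeR adjusted p = 1.70e-12) in S and 0.43 (SE 0.05, adjusted p = 1.13e-06) in G2M. Other large differences in S were those of Rps27l at 0.65, Rps25 at 0.55 and Rps15 at 0.54 (SE 0.04 each), and in G2M Rpl22l1 at 0.50, Rps27l at 0.46, Rpl31 at 0.46 and Rpl41 at 0.44, all higher in 5 of 5 libraries.

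Rps27rt was the only one of the 79 called lower in either phase, with the reads it shares with Rps27 making its level uncertain. By TMM-scaled CPM it measured 31.9, 115 and 64.0 in G1 of PBS and 42.9 and 56.9 in AML. In S it measured 30.9, 83.0 and 61.4 in PBS and 15.4 and 49.2 in AML, where AML replicate 1 had only 13 UMIs of it in G1 and 10 in S. The value fell in every library, by 0.21 on average on the log2 scale in S (SE 0.08, edgeR adjusted p = 0.0244) and by 0.21 in G2M (SE 0.07, adjusted p = 0.00952). Without PBS replicate 2 the S difference of −0.18 no longer passed, and in the PBS libraries alone neither did (−0.17 in S, −0.13 in G2M). Rps27 (−0.04 in S, −0.05 in G2M), Rps9 (0.00 and −0.09), Rpl24 in S (0.06), and Rpl17 and Rpl10 in G2M (−0.01 and −0.02) did not pass the test.

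The paralogs were then set against their partners within each library, as a percentage of the partner's UMIs. Rps27l amounted to 50.8%, 16.3% and 43.8% of Rps27 in PBS and 71.4% and 47.2% in AML over all cells. The range between PBS replicates 1 and 2 came with the level of Rps27, 677 CPM in replicate 1 and 2288 in replicate 2, rather than of Rps27l, 344 and 372 CPM. Within each library the ratio was higher outside HSC, by a log2 change of 0.78 ± 0.16 in MPP2, 0.85 ± 0.24 in MPP3 and 0.33 ± 0.14 in MPP4, and it was higher in S than in G1 by 0.68 ± 0.09 and in G2M by 0.50 ± 0.08 (SD, n = 5; 5 of 5 libraries each time).

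Rpl36al amounted to 52.1%, 37.2% and 46.1% of Rpl36a in PBS and 37.3% and 49.0% in AML, and its ratio was above that of HSC in 5 of 5 libraries in MPP2 (0.30 ± 0.07), MPP3 (0.65 ± 0.40) and MPP4 (0.20 ± 0.04). In cluster 6 Rpl36al reached 211%, 295% and 179% of Rpl36a in PBS, and 163% in AML replicate 3. AML replicate 1 gave 56.9% there, from 9 cells with 29 and 51 UMIs of the paralog and its partner.

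Rpl22l1 can take the place of Rpl22 in the large subunit. Over all cells it amounted to 27.3%, 36.9% and 29.5% of Rpl22 in PBS and 26.0% and 26.5% in AML. Both AML libraries thus lay below all PBS libraries, in sums that mix the classes. The same held within HSC, MPP2, MPP3, S and G2M. In MPP4 both AML libraries lay above PBS replicate 1, which had 24.2%. In G1 AML replicate 3 was about level with PBS replicate 1. Unlike the ratios of Rps27l and Rpl36al, the Rpl22l1 ratio was below that of HSC in 5 of 5 libraries in MPP3 (−0.16 ± 0.07) and MPP4 (−0.15 ± 0.08). It was above that of HSC in 5 of 5 in MPP2 (0.10 ± 0.09). Among the phases it was highest in G2M, above G1 by 0.35 ± 0.10 in 5 of 5 libraries. Rpl22l1 itself was called higher in MPP2 (log2 difference 0.48, SE 0.08), S (0.40, SE 0.04) and G2M (0.50, SE 0.04) by edgeR and was not called in MPP3 (0.21, SE 0.12) or MPP4 (0.03, SE 0.05).

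Rpl7l1, a protein of ribosome assembly, amounted to 7.2% to 9.9% of Rpl7 in the 5 libraries, and Rps27rt to 2.4% to 5.1% of Rps27. Over the 25 ratios compared (5 pairs, 5 comparisons), the two-sided exact permutation test that flips the sign of each library's change can go no lower than p = 0.0625 with 5 libraries. That value was reached wherever all 5 libraries agreed in sign, with a Benjamini-Hochberg adjusted p of 0.0919, so no ratio passed 0.05 on this test.

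**Figure D3:**
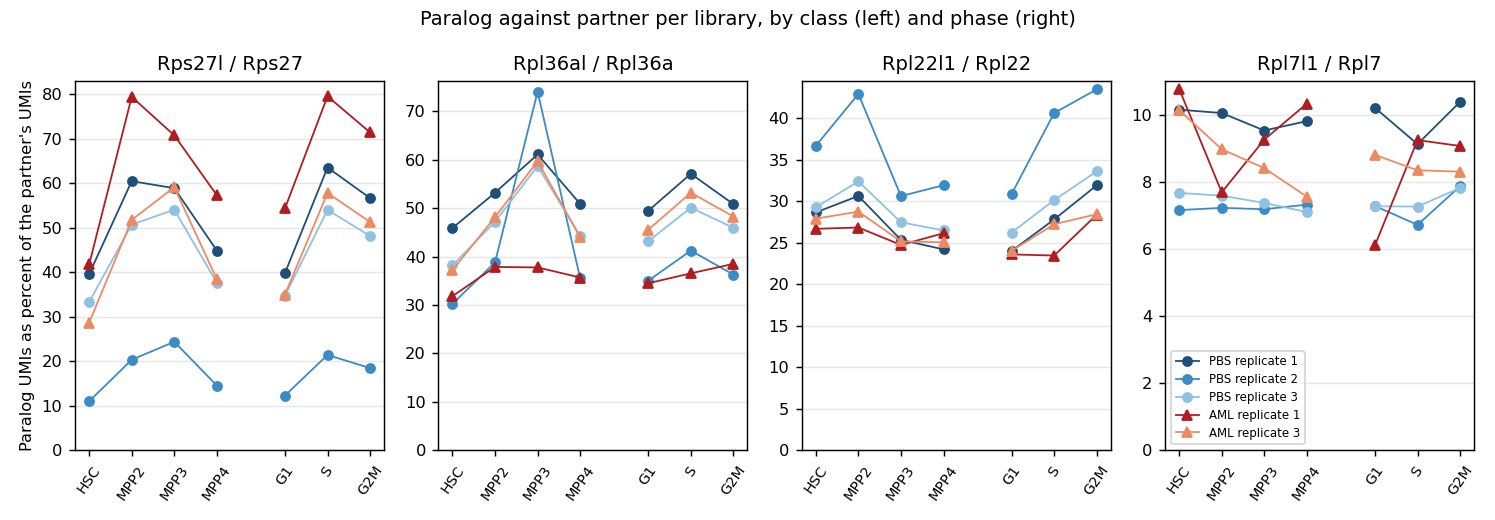
Paralog UMIs as a percentage of the partner's UMIs (y axis) by class and phase, one panel per pair; each point is 1 library and lines join the values of a library. Rps27l goes up from HSC to MPP2 in each library, as from 41.8% to 79.5% in AML replicate 1, and PBS replicate 2 has the lowest Rps27l ratio in each class and phase.

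AML against PBS over all kept cells called 0 of the 79 genes by edgeR, where 0.160% of all genes were called. At an unadjusted p under 0.05 there were 0 as well (10.5% of all genes). DESeq2 called 0, with 3 at an unadjusted p under 0.05 (8.40% of all genes), and limma-voom called 0, with 5 (9.55%). The highest such count, 23 (12.3%), came from limma-voom with a class term, which called 0 too. The median log2 difference was −0.14 against −0.03 over all genes, with 26 of 79 above 0. It was −0.30 with 9 above 0 in G1 cells alone. Each library moved it by over 1.5 times: with AML replicate 1 or 3 left out it was −0.06 or −0.24, and with PBS replicate 1, 2 or 3 left out it was −0.27, −0.04 or −0.07. In data simulated at these library sizes, edgeR recovered 3 of 67 genes changed 1.5-fold, 22 of 67 changed 2-fold and 65 of 66 changed 4-fold, so differences under 2-fold were mostly not detectable. By TMM-scaled CPM, both AML libraries lay below all PBS libraries for 6 of the genes (17.4% of all genes did) and above for 0 (14.6% of all genes). The 6 were Rpl13a, Rpl5, Rpl21, Rps3a1, Rpl7a and Rpl7. By plain CPM the groups overlapped for Rpl13a and Rpl7a, with 1288 and 1872 in AML replicate 3 against 1202 and 1847 in PBS replicate 3.

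With CPM here and in the next paragraph TMM-scaled, the largest positive difference was that of Rpl31, at the exit tunnel of the large subunit. It measured 947, 1122 and 1554 CPM in PBS and 2464 and 1294 in AML, so that AML replicate 1 alone was high and the groups overlapped (log2 difference 0.64, SE 0.34, edgeR adjusted p = 0.518). Rpl35 measured 549, 1447 and 880 CPM in PBS and 2167 and 691 in AML (0.57, SE 0.45). Rpl37, which can bind MDM2, measured 5133, 8913 and 11153 in PBS and 16615 and 8131 in AML (0.56, SE 0.40), and Rps27l and Rpl4 had 0.52 and 0.46. AML replicate 1 was the high library in each of these genes.

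Rps9, a small-subunit protein near the decoding site, had the lowest difference, with 1823, 3522 and 2307 CPM in PBS and 1072 and 1987 in AML (−0.74, SE 0.37, edgeR adjusted p = 0.502). Rpl3, beside the peptidyl transferase center, measured 1797, 2680 and 1919 in PBS and 987 and 1839 in AML (−0.59, SE 0.34). Rps27rt and Rpl10 had −0.68 and −0.53. AML replicate 1 was the lowest library in all 4, and AML replicate 3 fell within the PBS range.

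**Figure D4:**
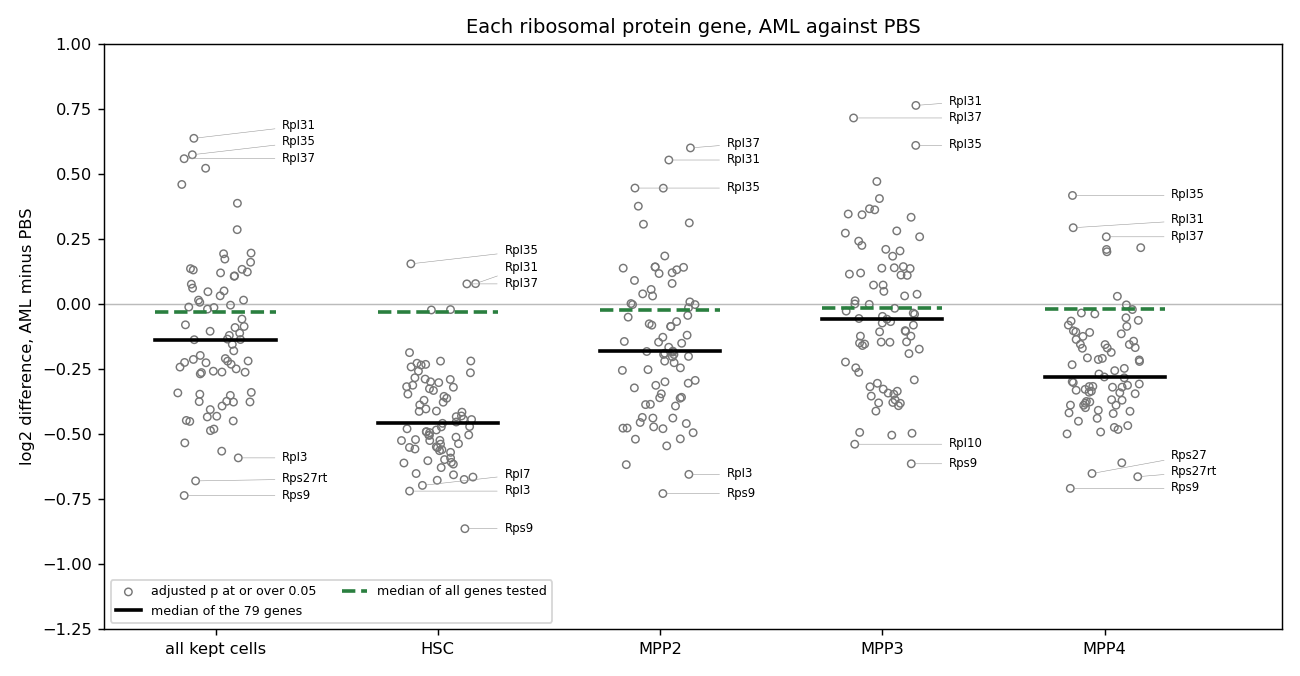
Log2 difference between AML and PBS (y axis, TMM-scaled edgeR fit) of each ribosomal protein gene over all kept cells and within each class; each point is 1 of 79 genes, and lines mark the median of the 79 genes and of all genes tested. None has an adjusted p under 0.05, and the median of the 79 is farthest below that of all genes in HSC, at −0.46.

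Within classes, edgeR also called 0 of the 79 genes in HSC, MPP2, MPP3 and MPP4, where 0.178%, 0.0399%, 0.0486% and 0.0325% of all genes were called, and DESeq2 called 0 in each. At an unadjusted p under 0.05 edgeR had 4 in HSC (4.16% of all genes), 0 in MPP2 (7.56%), 0 in MPP3 (7.39%) and 1 in MPP4 (5.93%), so that in HSC the share was near that of all genes. DESeq2 had 12 in HSC (0.806%), 2 in MPP2 (5.46%), 1 in MPP3 (4.32%) and 2 in MPP4 (2.84%). The median log2 difference was −0.46 in HSC with 3 of 79 above 0, −0.18 in MPP2 with 22, −0.06 in MPP3 with 32 and −0.28 in MPP4 with 7. Single libraries moved these medians. Without AML replicate 1 they were −0.26, −0.06, 0.05 and −0.14, and without AML replicate 3 −0.75 (−0.50 over all genes), −0.30, −0.16 and −0.42. Leaving out one PBS library gave −0.59 to −0.35 in HSC, −0.30 to −0.08 in MPP2, −0.20 to 0.05 in MPP3 and −0.38 to −0.17 in MPP4, and in MPP3 the sign turned without PBS replicate 2 or 3. By TMM-scaled CPM, both AML libraries lay below all PBS libraries for 25 genes in HSC (16.3% of all genes), 5 in MPP2 (14.8%), 0 in MPP3 (12.6%) and 10 in MPP4 (14.5%). They lay above for 0 in HSC (11.0%), 0 in MPP2 (14.1%), 1 in MPP3 (12.0%), which was Rps19bp1, and 0 in MPP4 (13.2%). In HSC, where AML replicate 1 had 23 cells, Rps9 had −0.86 (SE 0.35), Rpl3 −0.72 (SE 0.34) and Rpl7 −0.70 (SE 0.33). By TMM-scaled CPM Rpl7 measured 1694, 2286 and 1783 in PBS and 879 and 1430 in AML, with no overlap. By plain CPM it measured 1695, 2064 and 1562 in PBS and 1060 and 1449 in AML, also with no overlap. Library-size scaling gave a median of −0.22 in HSC against 0.12 over all genes, and of 0.14 in MPP3 against 0.11.

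Whether the AML difference itself varied among the 4 classes was tested with an interaction term, which called 7 of the 79 genes (0.872% of all genes were called), with 58 at an unadjusted p under 0.05 (10.9% of all genes). Among them were Rps14 (edgeR adjusted p = 0.0287), Rpl37 (0.0341), Rps10 (0.0380), Rpl24 (0.0416), Rps16 (0.0430) and Rps27a (0.0448). For Rps14, a small-subunit protein, the log2 AML difference was higher than in HSC by 0.45 in MPP2, 0.62 in MPP3 and 0.22 in MPP4, and the other 6 called had the same signs. The calls rested on single libraries: none remained without PBS replicate 1, PBS replicate 3 or AML replicate 1, 3 genes were called without PBS replicate 2 (1.5% of all genes) and 30 without AML replicate 3 (0.802%). With library-size scaling 0 were called.

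Other measures moved with the groups. Mitochondrially encoded genes held 0.91% to 1.19% of the UMIs in PBS and 0.71% to 0.85% in AML. The summed level of 6 HSC markers was 352 to 384 CPM in PBS and 253 to 255 in AML, that of 4 myeloid markers 769 to 1323 and 1803 to 1804, and that of 6 erythroid markers 781 to 1163 and 273 to 583. The 6 T and NK cell markers, nearly all of it Nkg7, summed to 150 to 175 CPM in PBS and 181 to 185 in AML. All members of the HSC, myeloid and erythroid lists were detected. In the same libraries 4 plasma cell markers summed to 10306 to 13345 CPM in PBS and 9648 to 12457 in AML, and 6 neutrophil markers to 2.2 to 15.9 and 2.6 to 5.2. The class makeup differed too. HSC were 20.5%, 23.9% and 21.9% of the kept cells in PBS and 3.32% and 13.7% in AML, and MPP3 were 11.6%, 4.39% and 9.60% in PBS and 32.9% and 22.3% in AML, with no overlap in either. The sums over all kept cells mix these classes, and the values within classes given above do not. The part of the marker lists or of the mitochondrial share in the AML values was not tested.

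Single genes varied more between libraries than the summed share did. By plain CPM, 10 of the 79 genes differed more than 2-fold among the 3 PBS libraries, and 21 among all 5, with a median ratio of highest to lowest of 1.36 and 1.62. Rps29 measured 1168, 4379 and 2368 CPM in PBS and 3741 and 1924 in AML, and Rps28 measured 1635, 5500 and 3542 in PBS and 4677 and 2927 in AML. PBS replicate 1 was lowest for both. Rpl5, whose product binds MDM2 when free, varied less, by 1.13-fold from lowest to highest library, and measured 1179, 1107 and 1130 in PBS and 1045 and 1101 in AML. AML replicate 1 was the highest library for 18 genes and the lowest for 39.

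These library differences ran with coding length, an observation made after the values were seen. The longest GENCODE M21 coding sequence of the 79 genes had a median of 453 bases. For PBS replicate 1, each gene's log2 level relative to the mean of the libraries correlated with coding length across the 79 genes (Spearman's rho 0.86, Pearson's r 0.70), and all 26 genes of at most 400 bases were below that mean, with a median of −0.46. For AML replicate 1 the relation ran the other way (rho −0.58, r −0.45), and 3 of 23 genes over 600 bases were above the mean, with a median of −0.52. PBS replicates 2 and 3 had rho −0.05 and −0.36, and AML replicate 3 had 0.39. Genes of one library share its preparation and depth, so these values describe libraries and carry no p. In the comparison of AML with PBS the long genes had a median log2 difference of −0.38 and the short genes 0.02 (rho −0.48), while in the class and phase comparisons, made within libraries, rho lay between −0.12 and 0.01. The cause was not tested.

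**Figure D5:**
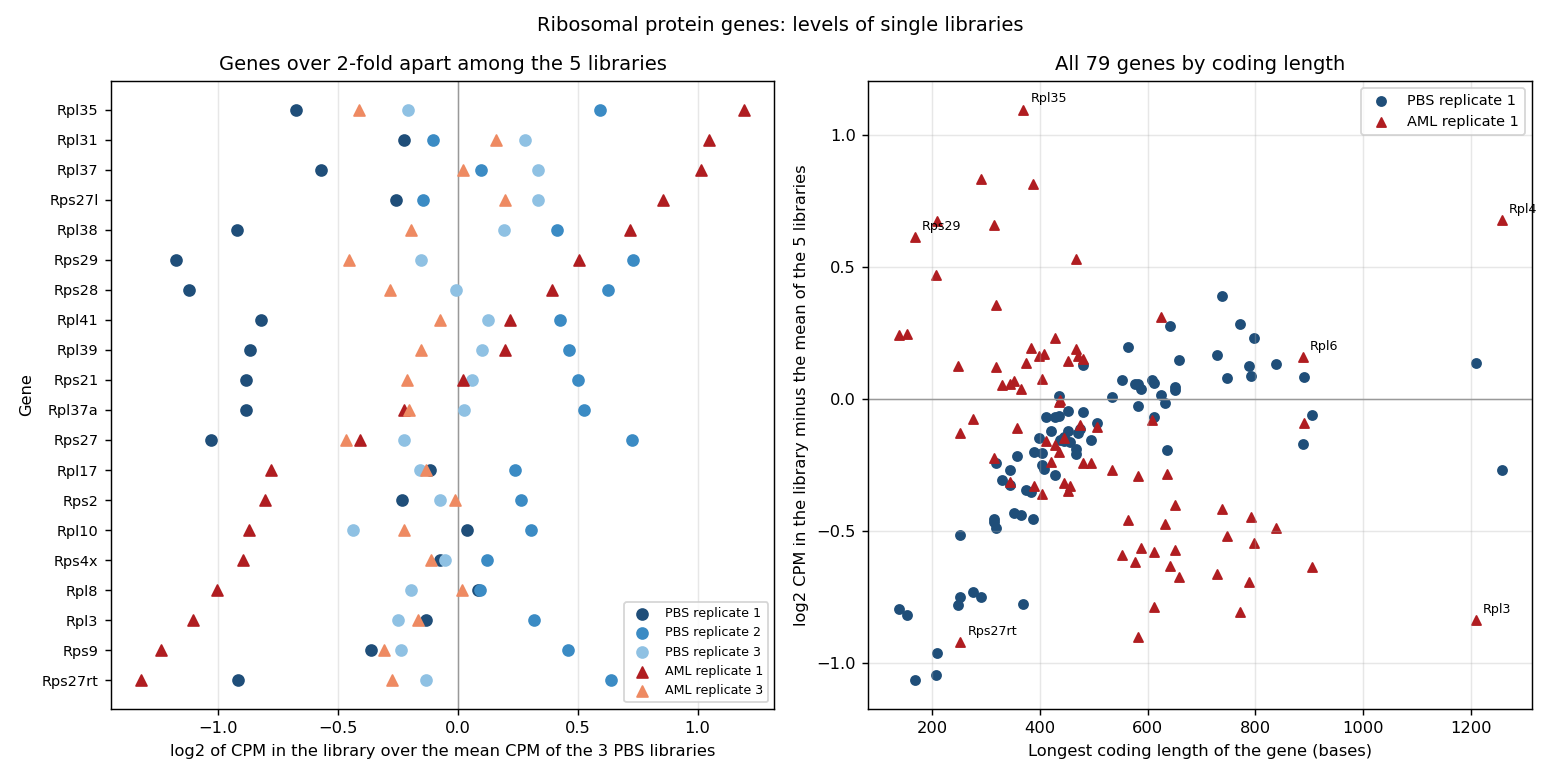
Left, log2 of the CPM in each library over the mean of the 3 PBS libraries (x axis) for 20 of the 21 genes more than 2-fold apart among the 5 libraries; right, log2 level relative to the mean of the 5 libraries (y axis) against coding length in bases (x axis) for PBS replicate 1 and AML replicate 1, each point 1 of 79 genes. Short genes lie below 0 in PBS replicate 1, and most long genes lie below 0 in AML replicate 1.

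Split by symbol, the differences were spread over Rps genes, which here include Rps19bp1, and Rpl genes, which include Rpl7l1. In MPP2, 29 of 33 Rps and 44 of 46 Rpl genes were called higher, with medians of 0.36 and 0.34. In S these counts were 29 of 33, with 1 lower, and 43 of 46, and in MPP4 17 and 25. The ratio of Rps to Rpl UMIs lay between 0.82 and 0.86 in the 5 libraries. Of 19 Diamond-Blackfan anemia genes, 17 were called higher in MPP2, 7 in MPP3, 12 in MPP4, 17 in S and 16 in G2M, where 29.9%, 21.9%, 18.4%, 30.7% and 27.7% of all genes were. Of 10 genes whose products bind MDM2, 8, 2, 3, 9 and 8 were called higher in the same order, Rps27l among them each time, and the 2 of 10 in MPP3 was close to the share of all genes. None of either list was called in AML against PBS.

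Of the 6 ribosomal protein genes missed by the symbol rule, 5 were called higher in MPP2, 1 in MPP3, 3 in MPP4 and 4 in each of S and G2M, the MPP3 count again being close to the 21.9% of all genes. Of 18 translation factors and other genes with TOP mRNAs, 13, 7, 8, 14 and 13 were called higher in MPP2, MPP3, MPP4, S and G2M, against the same shares of all genes as above (29.9%, 21.9%, 18.4%, 30.7% and 27.7%). The 78 genes of the mitochondrial ribosome, a separate particle translating mitochondrial mRNAs, had higher medians than the 79 genes in MPP2, MPP3, S and G2M. By count, 74 were called higher in MPP2 with a median log2 difference of 0.61 (−0.02 over all genes), 59 in MPP3 (0.47 against −0.02), 75 in S (0.53 against −0.02) and 74 in G2M (0.48 against −0.05), beside the same shares of all genes. In MPP4 28 were called higher and 1 lower, with a median of 0.13 against −0.01, and none was called in AML against PBS. The difference between the cytosolic and mitochondrial lists was not tested.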

How the data were processed

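The deposited values were whole UMI counts per gene and cell barcode; per the labels the authors made them with Cell Ranger 7.0.1 on GRCm38 (mm10) and worked in R 4.2.2 with Seurat 4.3.0. The authors' cell table gave classes from module scores, clusters and phases. It also gave a percent of UMIs from ribosomal protein genes, per the file headers. In all 16822 cells this matched the counts over all symbols starting with Rps or Rpl, a wider set than the 79 genes that takes in kinase and Rplp genes. No doublets were removed beyond what the authors had done, which the sources used here do not describe. Kept libraries held 1945659 to 32123508 UMIs.

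Counts were summed per library, and per class or phase where at least 20 cells were present. Sums were fitted with edgeR 4.0.16 (R 4.3.3: TMM, filterByExpr, quasi-likelihood F test, Benjamini-Hochberg adjustment over all genes, threshold 0.05). Class and phase fits had the library as a block. CPM of single genes given beside a fit was TMM-scaled, and CPM of marker sums, paralog pairs and library differences was not. All 79 genes passed the count filter in every comparison. DESeq2 1.42.0 and limma 3.58.1 were alternatives. The edgeR fit was tested on simulated data: in MPP4 against HSC it recovered 66 of 67 genes changed 1.5-fold. Barcodes outside the authors' table were used only for AML replicate 2 and one alternative, with at least 1000 genes and at most 10% mitochondrial UMIs.

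Named genes were the paralogs and partners, the 3 highest and 3 lowest totals, the 5 genes farthest above and 5 below the median of the 79 per comparison (3 and 3 within a class), and all called genes where 10 or fewer were called. Some genes taken by this rule are not reported here. The genes and lists were chosen with earlier results of these data known. Gene positions were from GENCODE M21 and start sites from RefSeq, matched by symbol. Protein sequences were not used here.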

Additional observations from a re-analysis of the deposited data

Results flagged for a closer look

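In 5 of 77 sets of 5 libraries, one library's log2 ratio lay far from the other 4, where chance gives about 1 in 20. For MPP4 over HSC these were Rpl21, highest at 0.26, and Rps27rt, lowest at −1.22. For S over G1 it was Rpl7l1, highest at 0.80. For G2M over G1 they were Rps27rt, lowest at −0.79, and Rpl7l1, highest at 0.82. The library was AML replicate 1, the thinnest, in all 5. There Rps27rt had 6 UMIs in MPP4, 3 in HSC, 13 in G1 and 25 in G2M. Rpl7l1 had 18 in G1, 67 in S and 106 in G2M, so the ratios of both genes rest on few molecules.

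The AML difference varied among the 4 classes, by the edgeR interaction test, for Rps14 (adjusted p = 0.0287), Rpl37 (0.0341), Rps10 (0.0380), Rpl24 (0.0416), Rps16 (0.0430) and Rps27a (0.0448). The HSC class of AML replicate 1, which enters each of these tests, held 23 cells, and its part in the result was not tested beyond leaving that library out, when 0 were called.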

How the results depend on the processing

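In AML against PBS 0 of the 79 genes were called under each of the alternatives run, including own barcode filtering with 3 against 3 libraries, thinning to 2000 UMIs, and leaving out any replicate (0 to 0). With the replicate block, also 0 were called in all cells and in each class. The median log2 differences were then −0.05 over all cells, −0.37 in HSC, −0.08 in MPP2, 0.05 in MPP3 and −0.16 in MPP4. Replicate numbers were shared by 2 pairs whose deviations correlated at −0.10 and −0.20. With 2 AML libraries the crossed pairs must give the opposite values, 0.10 and 0.20, so this check cannot decide on pairing. The main fits did not take these libraries as pairs. Scaling on library size alone lowered the counts called to 35 in MPP2, 8 in MPP3, 38 in S, 39 in G2M and 0 for the interaction. It also reversed the median in MPP3 (−0.16) and the values of Rps27 (−0.26), Rps9 (−0.23), Rpl10 (−0.18) and Rpl17 (−0.15) in MPP2, of Rps9 (−0.40), Rps27 (−0.40), Rpl21 (−0.37), Rps7 (−0.35) and Rpl22 (−0.015) in MPP3, of Rpl24 (−0.11) in S, and of Rpl22 (−0.022) in G2M. G1 cells alone, with cluster 6 kept and 4 libraries, gave 3 called in MPP3, all higher (10.5% of all genes were). MPP4 cells alone gave 47 in S, 4 of them lower (44.4% of all genes), and 8 in G2M, 4 of them lower (22.3%), with Rpl24 at −0.082 and Rpl22 at −0.0074 in S, and the median at −0.053, Rpl22 at −0.080, Rpl7l1 at −0.061 and Rpl7 at −0.068 in G2M. Leaving out cluster 6, chosen after seeing the data, gave 44 called in MPP3 (42.5% of all genes) and 17 for the interaction (1.26%), and TMM on the other genes gave 21 for the interaction (1.15%). Leaving out one replicate gave 60 to 75 in MPP2, 15 to 35 in MPP3, 22 to 51 in MPP4, 41 to 72 in S, 42 to 69 in G2M and 0 to 30 for the interaction, where 51.8% to 59.5%, 31.7% to 41.5%, 30.2% to 37.2%, 53.3% to 60.0%, 46.9% to 57.0% and 0.239% to 1.5% of all genes were called in either direction. The share of the 79 genes was below that of all genes in 4 of 5 of these fits in MPP3, 2 of 5 in MPP4, 1 of 5 in S and 3 of 5 for the interaction. The count moved by over 1.5 times in MPP3 without AML replicate 3 (15) or PBS replicate 3 (16), in MPP4 without either (22 each), in S without PBS replicate 3 (41) or AML replicate 3 (46), and in G2M without PBS replicate 1 (42). Rpl22 also lost its call in MPP3, S and G2M without AML replicate 3. The cause of these changes was not tested. Depth limits AML replicate 1 most, and the 2 AML libraries limit all AML comparisons to large differences.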
